A study of Mus musculus with 18 samples.

Results

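The serum amyloid A genes are a small family of acute-phase genes, and the 4 members Saa1, Saa2, Saa3 and Saa4 were taken by gene symbol from the deposited gene count tables, which list 21018 genes in all. Each of the 4 was present in every table, among 18108 genes with counts for Pico, 18051 for V4 and 19424 for TruSeq. The samples were livers of male C57/B6J mice aged 12 weeks, 3 given an intraperitoneal injection of 20 µg/kg of IL-1β (ILB.9579, ILB.9582 and ILB.9583 in the labels) and 3 given saline (UNT.9574, UNT.9575 and UNT.9576), and the tissue was taken 4 h later after perfusion with cold buffered saline. RNA of each mouse was prepared with 3 kits, giving 18 libraries. Pico is a strand-specific total RNA kit with ribosomal depletion that received 1.7 to 2.6 ng of RNA, V4 is an unstranded poly(A) kit that received 0.8 to 1.3 ng, and TruSeq is a strand-specific poly(A) kit that received 200 ng. Reads were 150 bp long for Pico and V4 and 125 bp for TruSeq. The study's methods credit the TruSeq libraries to an earlier study and name another sequencer model for them. In comparisons with TruSeq, the kit therefore cannot be told apart from the run and the sequencer. The question put to each kit was the hepatic response to IL-1β, so each result on the response is a comparison of 3 IL-1β with 3 saline mice within a kit. The same mice stand behind all 3 kits, which are therefore not independent experiments.

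Serum amyloid A proteins are small apolipoproteins that the liver secretes during an acute-phase response and that travel in the blood on high-density lipoprotein. Saa1 and Saa2 encode the main circulating acute-phase forms, Saa3 is an inducible member in the mouse that is best known from macrophages and fat, and Saa4 encodes a form that is made constitutively. IL-1β acts through its receptor Il1r1 and the adaptor Myd88 on NF-κB, and IL-6 with STAT3 and the C/EBP factors adds to the induction of the acute-phase genes in hepatocytes.

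The 4 genes lie in a cluster of 42.317 kb on chromosome 7 of mm9 (53967368 to 54009684). Saa3 (ENSMUSG00000040026) spans 53967368 to 53971046 on the minus strand, Saa4 (ENSMUSG00000040017) 53983387 to 53987913 on the minus strand, Saa1 (ENSMUSG00000074115) 53995871 to 53998350 on the minus strand, and Saa2 (ENSMUSG00000057465) 54007203 to 54009684 on the plus strand. Saa1 and Saa2 thus point away from each other, with starts 8.853 kb apart. Each gene has 1 annotated transcript of 4 exons, with 605 bases for Saa1, 610 for Saa2, 531 for Saa3 and 2015 for Saa4, and no exon of a member overlaps an exon of another gene. Saa1 and Saa2 are used here as the tables name them, since RefSeq lists each of these names as a synonym of the other gene.

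Saa1 and Saa2 are close copies, so the sequence decides whether a read can be given to 1 of them. Their coding sequences are 95.1% identical, with 18 differences in 369 bases. Saa1 shares 75.3% of aligned coding positions with Saa3 and 64.6% with Saa4. The stretch from base 70 to base 189 of the coding sequence holds 12 of the 18 differences between Saa1 and Saa2, and it is printed from the GENCODE vM1 transcripts (mm9) with the differing bases in capitals.
Saa1: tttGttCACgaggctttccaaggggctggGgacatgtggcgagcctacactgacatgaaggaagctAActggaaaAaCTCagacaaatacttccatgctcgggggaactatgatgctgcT
Saa2: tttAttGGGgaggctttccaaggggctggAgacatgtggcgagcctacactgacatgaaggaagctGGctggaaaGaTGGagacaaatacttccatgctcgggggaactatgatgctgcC
Over the rest of the coding sequence the pair differs at few positions. Every 125-base window of the coding sequence nonetheless held at least 4 differences and every 150-base window at least 5. In all 4 members 100% of the read-length windows of the transcript occurred in no other protein-coding gene, counting exact matches only.

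The sequences before the start sites are shown for the 4 members. They are the 250 bases before each RefSeq start (GRCm38.p6 table), and each matched mm9 chromosome 7 once, without a mismatch. The window of Saa4 ends 60 bases before the start in the mm9 annotation and the other windows end directly at it. Capitals mark matches, on either strand, to the NF-κB nonamer GGNNTTTCC and the C/EBP octamer TTNNGNAA.
Saa1 (chr7:53998351-53998600, minus strand): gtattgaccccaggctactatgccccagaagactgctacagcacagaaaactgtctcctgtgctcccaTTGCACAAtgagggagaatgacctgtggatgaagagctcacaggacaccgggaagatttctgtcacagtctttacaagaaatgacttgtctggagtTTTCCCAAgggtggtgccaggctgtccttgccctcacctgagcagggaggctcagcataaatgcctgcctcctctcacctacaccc
Saa2 (chr7:54006953-54007202, plus strand): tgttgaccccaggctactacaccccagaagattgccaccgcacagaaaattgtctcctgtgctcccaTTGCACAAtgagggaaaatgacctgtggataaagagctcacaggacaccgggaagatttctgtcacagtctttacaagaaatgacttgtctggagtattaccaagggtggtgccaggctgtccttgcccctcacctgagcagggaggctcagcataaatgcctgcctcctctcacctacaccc
Saa3 (chr7:53971047-53971296, minus strand): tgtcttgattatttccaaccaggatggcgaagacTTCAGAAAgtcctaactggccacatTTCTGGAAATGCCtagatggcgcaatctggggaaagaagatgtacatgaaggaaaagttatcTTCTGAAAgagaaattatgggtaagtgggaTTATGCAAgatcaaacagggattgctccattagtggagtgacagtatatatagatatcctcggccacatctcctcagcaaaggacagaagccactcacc
Saa4 (chr7:53987974-53988223, minus strand): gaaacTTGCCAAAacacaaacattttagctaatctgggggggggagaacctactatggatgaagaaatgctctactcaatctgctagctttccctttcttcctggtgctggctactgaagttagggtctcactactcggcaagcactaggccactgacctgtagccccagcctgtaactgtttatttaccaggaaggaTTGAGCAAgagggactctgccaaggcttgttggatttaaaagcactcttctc
The nonamer matched only in the Saa3 window, once, where it overlaps a C/EBP match, and it matched in 4.93% of all 32851 RefSeq windows. The octamer matched 2 times in Saa1, 1 time in Saa2, 4 times in Saa3 and 2 times in Saa4, and 36.8% of all windows held at least 1 match. Saa1 and Saa2 were 94.8% identical over this window, and Saa3 and Saa4 shared 42.3 to 48.2% of aligned positions with any other member. These matches describe letters only, and other forms or spacings of either motif were not searched.

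Library totals were 12348864 to 12858237 counts for TruSeq, 12013453 to 12352473 for V4 and 4024632 to 4134070 for Pico. The hepatocyte markers used for the check (7 genes, Alb and Ttr among them) summed to 74567 to 113545 CPM (counts scaled to a library total of 1000000) in TruSeq, 32931 to 46756 in V4 and 61005 to 81442 in Pico, with none at 0 in any kit. Within each kit the IL-1β range of this sum, to which Alb contributed most, lay below the saline range. The members went both ways, and of the 7 genes Pico called 2 higher and 5 lower, TruSeq 1 and 4, and V4 1 and 3. Over all genes Pico called 6.78% higher and 10.8% lower, TruSeq 12.3% and 21.8%, and V4 3.6% and 7.41%. Tat, tyrosine aminotransferase, was higher in every kit, with log2 fold changes of 1.28, 0.98 and 1.14 in TruSeq, V4 and Pico. In bulk tissue, fewer cells of a type and less RNA per cell cannot be told apart.

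All 4 members were higher after IL-1β than after saline in all 3 kits. Saa3 had the greatest fitted fold change, followed by Saa2 and Saa1, while Saa4 changed by 1.91 to 2.13 times. In Pico the order of Saa3 and Saa2 turned with 20 counts added to each mean, where the log2 fold change was 7.26 for Saa3 and 7.63 for Saa2. By limma-voom with Benjamini-Hochberg adjustment over all genes of a kit, 4 of 4 members passed an adjusted p of 0.05 as higher in each kit, beside 12.3% of all genes tested in TruSeq, 3.6% in V4 and 6.78% in Pico.

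**Figure D1:**
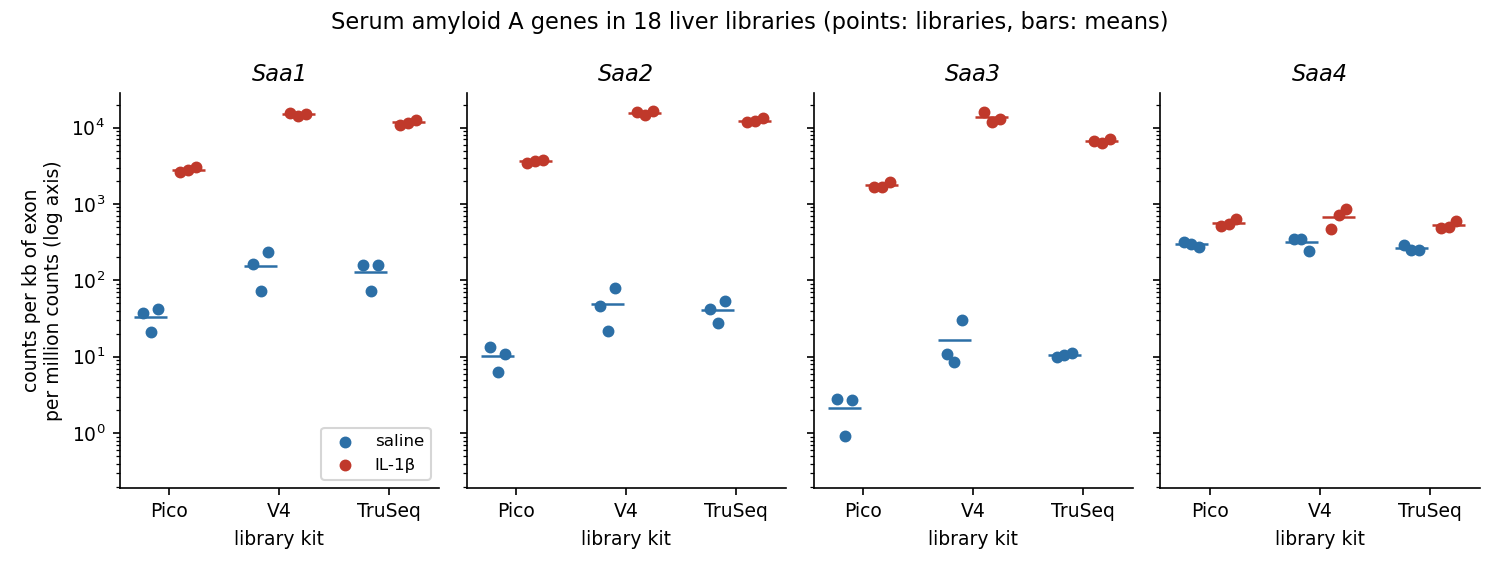
Level of each member in every library, in CPM divided by the kilobases of exon, on a log axis, by kit and treatment; points are libraries and bars are means of 3. The IL-1β points of Saa1, Saa2 and Saa3 lie far above the saline points in every kit, and those of Saa4 lie just above them.

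Saa3 counted least in saline livers. In TruSeq it had 67, 72 and 76 counts in saline mice UNT.9574, UNT.9575 and UNT.9576, and 44219, 40786 and 47194 counts in IL-1β mice ILB.9579, ILB.9582 and ILB.9583. In V4 the saline mice had 70, 54 and 196 counts and the IL-1β mice 102896, 76387 and 82775. The saline level was even in TruSeq, whereas in V4 mouse UNT.9576 stood above the other two. In Pico the saline mice had 6, 2 and 6 counts and the IL-1β mice 3558, 3533 and 4174. The log2 fold change was 9.30 ± 0.13 (SE) in TruSeq with an adjusted p of 5.53e-10 by limma-voom. In V4 it was 9.89 ± 0.39 with an adjusted p of 1.89e-07, and in Pico 9.66 ± 0.61 with an adjusted p of 1.5e-08. By size of fold change Saa3 ranked 3 in TruSeq, 2 in V4 and first in Pico. The Pico value rests on 14 saline counts in all, and the ratio of summed shares of the library, 820-fold, had a 95% counting interval of 488 to 1500.

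Saa2 had the second greatest fitted fold change. In TruSeq its counts were 324, 216 and 417 in saline mice UNT.9574, UNT.9575 and UNT.9576, and 89347, 90909 and 99732 in IL-1β mice ILB.9579, ILB.9582 and ILB.9583. In V4 they were 341, 161 and 600 against 120172, 108253 and 119641. Mouse UNT.9575 was the lowest saline mouse in every kit, and the IL-1β mice lay within 1.12 times of each other. In Pico the counts were 33, 16 and 27 against 8518, 8979 and 9383. The log2 fold change was 8.28 ± 0.18 in TruSeq with an adjusted p of 9.26e-09 by limma-voom, 8.50 ± 0.30 in V4 with an adjusted p of 9.87e-08, and 8.53 ± 0.31 in Pico with an adjusted p of 1.19e-11. Expressed as fold changes these were 311, 362 and 368. Saa2 ranked 4, 5 and 4 by size of fold change in TruSeq, V4 and Pico.

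Saa1 was the inducible member with the highest level in saline livers. In TruSeq it had 1221, 566 and 1229 counts in saline mice UNT.9574, UNT.9575 and UNT.9576, and 81939, 86161 and 95127 in IL-1β mice ILB.9579, ILB.9582 and ILB.9583. In V4 the counts were 1177, 525 and 1745 against 114212, 102451 and 109491. In Pico they were 93, 52 and 106 against 6356, 6850 and 7336. Mouse UNT.9575 was again the lowest saline mouse in all 3 kits. The log2 fold change was 6.57 ± 0.24 in TruSeq with an adjusted p of 3.9e-07 by limma-voom, 6.73 ± 0.27 in V4 with an adjusted p of 2.09e-07, and 6.43 ± 0.21 in Pico with an adjusted p of 5.32e-12. As fold changes these were 95.2, 106 and 86.4.

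Saa4 differed from the others in being abundant already in saline livers. In TruSeq it had 7455, 6441 and 6382 counts in saline mice UNT.9574, UNT.9575 and UNT.9576, and 12250, 12511 and 14926 in IL-1β mice ILB.9579, ILB.9582 and ILB.9583. In Pico the counts were 2639, 2491 and 2286 against 4237, 4474 and 5237. In V4 they were 8410, 8557 and 6093 against 11625, 17263 and 20848. The lowest IL-1β library was above the highest saline library in each kit, and the IL-1β mice of V4 spread most, by 1.81 times in CPM. The log2 fold change was 1.01 ± 0.11 in TruSeq (2.01-fold, adjusted p = 0.00012 by limma-voom), 0.93 ± 0.09 in Pico (1.91-fold, adjusted p = 3.22e-06) and 1.09 ± 0.22 in V4 (2.13-fold, adjusted p = 0.0095). The V4 call was lost when mouse UNT.9576, ILB.9582 or ILB.9583 was left out, with log2 fold changes of 0.92, 1.04 and 0.90 and adjusted p-values of 0.0532, 0.0586 and 0.0523. By size of fold change Saa4 ranked 1511 in TruSeq, 2103 in Pico and 1601 in V4.

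**Figure D2:**
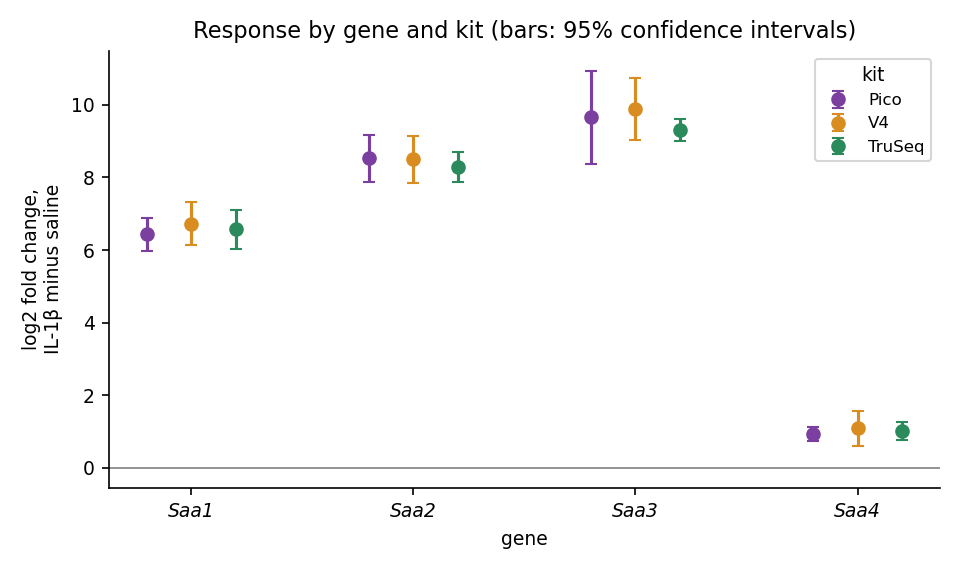
Log2 fold change of IL-1β over saline for each member (x axis) in each kit (colours), from limma-voom with 3 mice per treatment; bars are 95% confidence intervals. The kits lie close together for each gene, near 9.3 to 9.9 for Saa3 and near 1 for Saa4.

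The response itself was then compared between kits by the interaction of kit and treatment. None of the 4 members passed in any pair of kits, beside 0% of all genes in each pair (Pico minus TruSeq, V4 minus TruSeq and V4 minus Pico). In these tests limma-voom called 0 genes of 17207, 17147 and 16395, while 945, 1090 and 900 had an unadjusted p under 0.05. With edgeR the counts of called genes were again 0 in each pair, and with DESeq2 they were 4, 62 and 14. For Saa4 the Pico response minus the TruSeq response was -0.08 on the log2 scale, with a 95% interval of -0.39 to 0.24. The same difference was -0.14 for Saa1 (-0.96 to 0.68), 0.24 for Saa2 (-0.60 to 1.09) and 0.36 for Saa3 (-0.72 to 1.44). For V4 minus TruSeq the difference was 0.16 for Saa1, 0.22 for Saa2, 0.60 for Saa3 and 0.08 for Saa4, and the interval of Saa3 ran from -0.41 to 1.60. The widest interval was that of Saa3 in V4 minus Pico, from -1.83 to 2.31 around 0.24, which spans a larger response in either kit. Adjusted p-values of the members ranged from 0.962 to 0.999.

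Levels of different members were compared per kilobase of exon within a library. In all 9 saline libraries the order was Saa4, Saa1, Saa2, Saa3 from highest to lowest. After IL-1β the order was Saa2, Saa1, Saa3, Saa4 in 8 of 9 libraries, and in V4 mouse ILB.9579 Saa3 stood above Saa1. The neighbours Saa2 and Saa1 differed little after IL-1β in the poly(A) kits. In TruSeq the levels, in CPM divided by the kilobases of exon, were 11790 to 13178 for Saa2 and 10902 to 12674 for Saa1, so that their ranges overlapped. Saa3 lay at 6220 to 7164 and Saa4 at 489 to 597 on the same scale.

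Ranked among all genes by counts per kilobase, Saa2 was 2 to 3 and Saa1 3 to 4 in the IL-1β livers of TruSeq. Saa3 was 11 to 12 and Saa4 100 to 116 there. In saline livers of TruSeq, Saa4 ranked 189 to 220, Saa1 318 to 703, Saa2 944 to 1598 and Saa3 3394 to 3726. In V4 after IL-1β, Saa2 was 3 to 4, Saa1 was 6 and Saa3 was 4 to 8. In Pico the inducible members ranked lower after IL-1β, with 23 to 25 for Saa2, 29 to 33 for Saa1 and 44 to 50 for Saa3, while Saa4 at 90 to 107 was near its place in TruSeq.

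The make-up of the family differed by treatment in every kit. Per kilobase, Saa4 made up 52.6 to 69.2% of the family in saline livers of TruSeq and 1.64 to 1.78% after IL-1β. In Pico its share was 83.1 to 91.4% in saline livers and 6.32 to 6.85% after IL-1β. In V4 it was 41.6 to 77.5% and 0.986 to 1.90%. The rest of the family after IL-1β was Saa1, Saa2 and Saa3, and Saa3 held 30.2% ± 2.51 (SD, n = 3) of the family in V4, 21.4% ± 0.964 in TruSeq and 20.0% ± 0.837 in Pico.

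**Figure D3:**
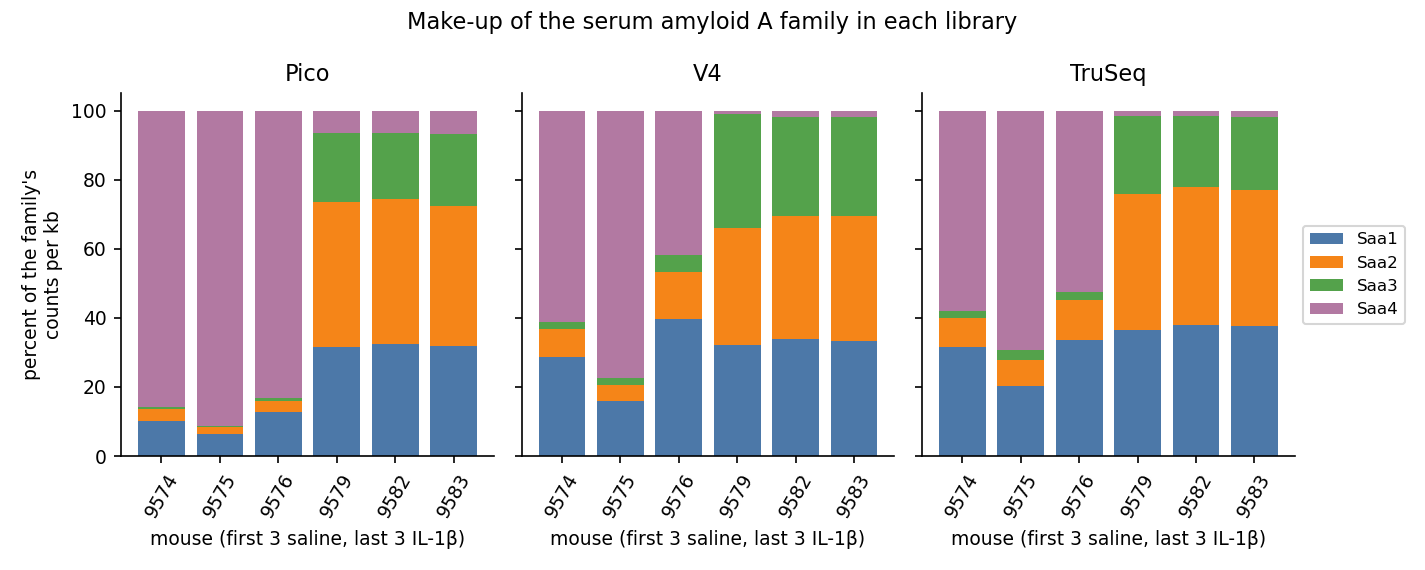
Share of each member in the counts per kilobase of the family, in percent, with 1 stacked bar per library and 1 panel per kit; the first 3 bars of a panel are saline mice and the last 3 IL-1β mice. Saa4 fills 41.6 to 91.4% of the saline bars and at most 6.85% of the IL-1β bars.

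As a share of all counts, the family went from 0.0639% ± 0.00736 (SD, n = 3) of a library in saline livers to 1.92% ± 0.129 after IL-1β in TruSeq, a ratio of means of 30.1. In V4 it went from 0.0767% ± 0.00667 to 2.72% ± 0.175, a ratio of 35.4. In Pico it went from 0.0629% ± 0.00466 to 0.600% ± 0.0438, a ratio of 9.54. The treatments did not overlap in any kit, and the exact permutation test (two-sided, 3 against 3) gave p = 0.1 in each, the smallest value that design allows. The saline shares of the kits lay close together and the IL-1β shares did not, while each member alone had a similar fold change in all kits. Most saline counts of the family were of Saa4, with mean CPM of 530, 634 and 601 in TruSeq, V4 and Pico. After IL-1β the mean CPM in these kits was 7080, 8987 and 1696 for Saa1. For Saa2 it was 7531, 9591 and 2220, and for Saa3 3555, 7218 and 930.

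The balance of Saa2 to Saa1 differed between treatments without overlap. In saline livers the ratio of Saa2 to Saa1 per kilobase was 0.263, 0.379 and 0.337 in TruSeq (mice UNT.9574, UNT.9575 and UNT.9576), 0.288, 0.305 and 0.341 in V4 and 0.355, 0.312 and 0.256 in Pico. After IL-1β it was 1.08, 1.05 and 1.04 in TruSeq (mice ILB.9579, ILB.9582 and ILB.9583), 1.04, 1.05 and 1.08 in V4 and 1.33, 1.30 and 1.27 in Pico. Saa2 was thus well below Saa1 in all 9 saline libraries and above it in all 9 IL-1β libraries. The log2 ratio was higher after IL-1β by 1.71 in TruSeq, 1.77 in V4 and 2.09 in Pico, with p = 0.1 in each by the exact two-sided permutation test, the smallest value possible with 3 against 3.

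The log2 ratio of Saa3 to Saa1 per kilobase was higher after IL-1β by 2.72 in TruSeq, 3.17 in V4 and 3.22 in Pico, and the ratio itself averaged 0.0867, 0.101 and 0.0669 in saline livers and 0.572, 0.909 and 0.624 after IL-1β. These values lay above those of Saa2 to Saa1, but in Pico the order turned with 20 counts added, where the difference was 1.17 for Saa3 to Saa1 and 1.56 for Saa2 to Saa1. Saa4 went from 2.14, 2.22 and 9.20 times Saa1 in saline livers of TruSeq, V4 and Pico to 0.0452, 0.0445 and 0.203 times Saa1. None of these ratios overlapped between treatments, and each test again gave the smallest possible p of 0.1 (exact permutation, two-sided).

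**Figure D4:**
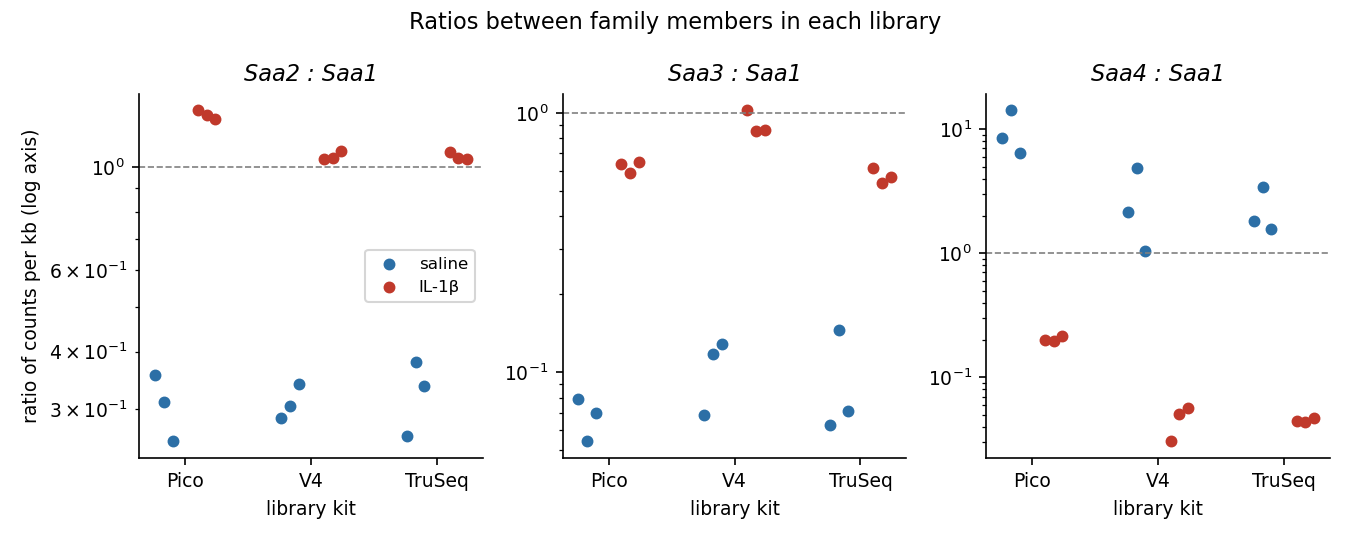
Ratio of counts per kilobase of Saa2, Saa3 and Saa4 to Saa1 in each library, on a log axis, by kit and treatment; each point is 1 library and the dashed line marks a ratio of 1. Saa2 to Saa1 moves from 0.256 to 0.379 in saline libraries to 1.04 to 1.33 in IL-1β libraries, and the Saa4 to Saa1 points of Pico lie above those of the other kits.

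The ratio of Saa4 to Saa1 in Pico lay apart from that in the poly(A) kits in every mouse. In all 6 mice the ratio of Saa4 to Saa1 was higher in Pico than in TruSeq, by 2.14 ± 0.0673 (SD) on the log2 scale, with 2.17 on average over the IL-1β mice and 2.11 over the saline mice. It was lower in V4 than in Pico in all 6 mice, by 2.12 ± 0.453. The exact sign-flip test over 6 mice gave p = 0.031 for each, the smallest value it allows, and 0.141 after adjustment over the 9 ratios and kit pairs tested. For the ratios of Saa2 and Saa3 to Saa1 the differences between Pico and TruSeq were 0.11 ± 0.352 and -0.12 ± 0.649 over all mice (p = 0.438 and 0.969, exact). Both ratios were higher in Pico in each IL-1β mouse, and the signs varied among the saline mice. For Saa2 to Saa1 the mean difference was 0.30 over the IL-1β mice and -0.08 over the saline mice. For Saa3 to Saa1 these means were 0.12 and -0.37. The treatments were not tested apart. Differences between V4 and TruSeq were 0.02 for Saa4 to Saa1, -0.03 for Saa2 to Saa1 and 0.45 for Saa3 to Saa1, the last higher in 5 of 6 mice with an exact p of 0.0938.

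The shift came with lower counts of the 3 short members in Pico. In log2 CPM, Pico minus TruSeq was -1.98 for Saa1, -1.85 for Saa2 and -1.95 for Saa3 as means of 6 mice, and 0.15 for Saa4. Among other genes with a longest transcript of 500 to 700 bases, the median of this difference was -0.34 over 183 genes, and among 802 genes of 1800 to 2200 bases it was -0.26. Only 2 of the 183 short genes had a difference at or below -1.85. Against V4 the 3 short members were 2.09 to 2.66 higher in V4 than in Pico, where the medians were 0.88 for the short and 0.58 for the long class and 40 of the 183 short genes lay at or above 2.09. These length classes were chosen after the members' values were seen, the kits were normalized separately, and the part of transcript length in the shift was not tested further.

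None of the genes on either side of the cluster passed as higher in any kit. Saal1, the nearest neighbour at 1.318 kb from the Saa3 end, had 20 to 33 counts in the Pico libraries, 41 to 77 in V4 and 27 to 68 in TruSeq. Its log2 fold change was -0.45 ± 0.29 in TruSeq, -0.16 ± 0.41 in V4 and 0.03 ± 0.38 in Pico, with adjusted p-values of 0.274, 0.83 and 0.968 by limma-voom. Hps5, which encodes a subunit of a complex for lysosome-related organelles and lies 6.152 kb beyond Saa2, had 210, 214 and 213 counts after IL-1β and 302, 301 and 278 in saline livers of TruSeq. It was lower there by a log2 fold change of -0.42 ± 0.11 (adjusted p = 0.0136 by limma-voom), a call that was lost with TMM scaling, where the log2 fold change was -0.27 and the adjusted p 0.091. Gtf2h1, a subunit gene of the general transcription factor TFIIH, and the pseudogene Gm9392 passed in no kit. Tph1 had 1 count in 1 TruSeq library and Gm15700 2 counts in 1 V4 library, so that neither could be compared.

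**Figure D5:**
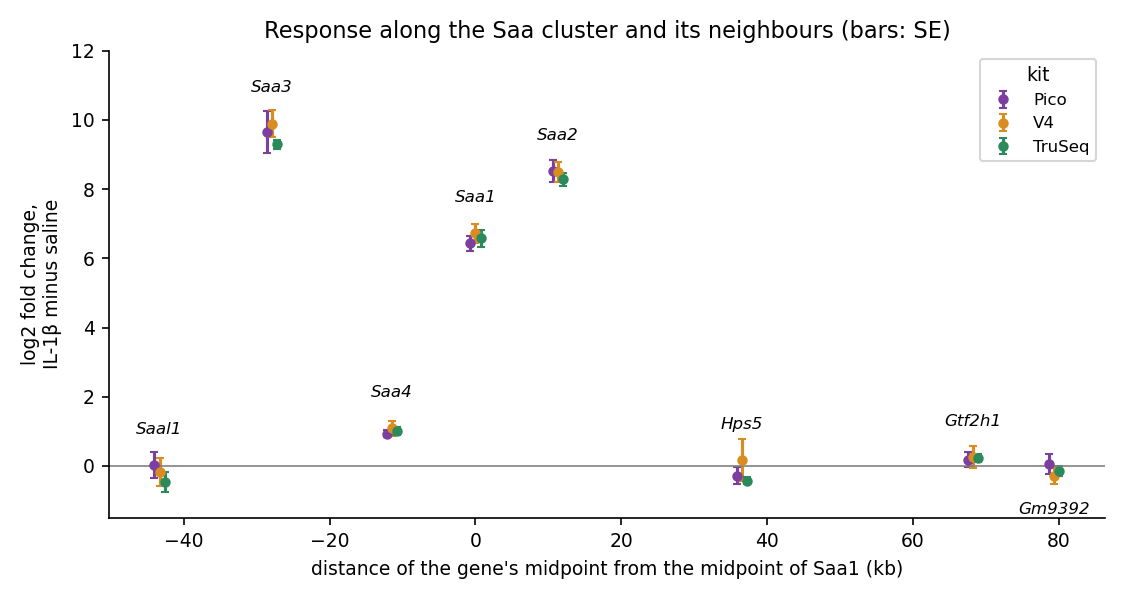
Log2 fold change of IL-1β over saline (y axis, bars are SE) against the distance of each gene's midpoint from that of Saa1 in kb (x axis), for the 4 members and the 4 neighbours with counts in every kit. Saa1, Saa2 and Saa3 stand between 6.43 and 9.89, Saa4 near 1 between Saa3 and Saa1, and the neighbours between -0.45 and 0.26.

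Across the 18 libraries, with each gene centred within its kit, the genes whose log2 CPM followed the members most closely were read off among 8960 genes that averaged 20 counts or more within each kit. For Saa1 they were Mt1, a metallothionein (Pearson r = 0.998), Ptpn1, a tyrosine phosphatase (0.996), and Orm1, an acute-phase plasma protein (0.995). The same 3 genes came first for Saa2, with r from 0.997 to 0.998. For Saa3 they were Lcn2, the siderophore-binding lipocalin 2 (0.998), Orm1 (0.997) and Ptpn1 (0.996). For Saa4 they were Map1lc3b, an autophagosome protein (0.971), Ctsl, a lysosomal protease (0.969), and Adck4 (0.969). Saa4 correlated with the other members at 0.912 to 0.915, whereas Saa1, Saa2 and Saa3 correlated with each other at 0.996 to 0.999. These values describe 18 libraries of the same 6 mice in 2 treatment groups, and the points share mice and treatment.

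The response of the family stood among that of other acute-phase genes. Of a list of 23 further positive acute-phase genes, 23 were higher in TruSeq and 22 each in Pico and in V4, and 0 were lower. Over all genes, 12.3% were higher and 21.8% lower in TruSeq, 6.78% and 10.8% in Pico, and 3.6% and 7.41% in V4. The median log2 fold change of the list was 2.19 in TruSeq, 2.04 in V4 and 2.0 in Pico, beside medians over all genes of -0.17, -0.22 and -0.12. The exception in Pico and V4 was Orm3, with log2 fold changes of 0.99 and 2.18 and adjusted p-values of 0.541 and 0.061 by limma-voom. In TruSeq the greatest rises were those of A2m, a protease inhibitor (10.22), and Lcn2 (9.53), and the least those of C3, the third complement component (0.83), and Itih3, a hyaluronan-binding plasma protein (0.88). The A2m value rests on 3, 3 and 0 counts in the saline mice and has an SE of 0.69. Saa1, Saa2 and Saa3 at 6.57, 8.28 and 9.30 stood near the top of the list's range in TruSeq and Saa4 at 1.01 near its foot.

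The route from IL-1β and IL-6 to the Saa promoters was described by 25 genes. Of these, 17 rose and 3 fell in TruSeq, 9 rose and 2 fell in V4, and 14 rose and 3 fell in Pico. Among all genes, 12.3% were higher and 21.8% lower in TruSeq, 3.6% and 7.41% in V4, and 6.78% and 10.8% in Pico. The V4 counts moved with the setting, to 12 higher and 0 lower with TMM factors, and to 6 higher without mouse UNT.9574 or UNT.9575. With any 1 mouse left out, 0 to 2 of the genes were lower in V4 and 1 to 3 in Pico. The greatest rises in TruSeq were those of Il1r2, the decoy receptor for IL-1 (log2 fold change 6.59), and Irak3, a kinase-like brake on the pathway (4.53). The lowest values were those of Cebpa, a C/EBP factor of mature hepatocytes (-1.16), and Irak2, a kinase of the pathway (-0.99), and both passed as lower. Il6 itself did not pass in any kit.

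Receptors named for serum amyloid A were sparser. Of 12 listed, 9 were tested in each kit, and 4 were higher in TruSeq and 2 each in Pico and in V4, with 0 lower. The shares over all genes were 12.3% higher and 21.8% lower in TruSeq, 6.78% and 10.8% in Pico, and 3.6% and 7.41% in V4. Cd14, a co-receptor for lipopolysaccharide, had a log2 fold change of 6.89 and Tlr2 one of 5.66 in TruSeq, and both were called in every kit. P2rx7 and Fpr1 had the lowest values there, -0.61 and -0.43, and did not pass.

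Of 14 genes for apolipoproteins, enzymes and transporters of high-density lipoprotein, 2 rose and 6 fell in TruSeq, 1 rose and 1 fell in V4, and 1 rose and 4 fell in Pico. Of all genes, 12.3% were higher and 21.8% lower in TruSeq, 3.6% and 7.41% in V4, and 6.78% and 10.8% in Pico, and the count of 1 lower gene of 14 in V4 lay near that background. Abca1, the cholesterol exporter that loads apolipoprotein A-I, rose in all 3 kits, by 1.42, 1.59 and 1.52 on the log2 scale in Pico, V4 and TruSeq. Apoa4 rose by 0.67 in TruSeq. Pon1, an esterase carried on the particle, had a log2 fold change of -0.51 there, and Abcg1 one of -0.66. The lower calls depended on scaling, since with TMM factors 1 gene was lower in TruSeq, 2 were in Pico and 0 in V4. With those factors the median of all genes moved up by 0.13, 0.17 and 0.16 (Pico, V4 and TruSeq), and the higher share of all calls went from 38.6 to 52.9%, from 32.7 to 49.7% and from 36.0 to 50.9%, while all 4 members stayed higher in each kit.

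Markers of other cells moved as well. Beside the calls given for each list, 12.3% of all genes were higher and 21.8% lower in TruSeq. These shares were 6.78% and 10.8% in Pico, and 3.6% and 7.41% in V4. The neutrophil list (8 genes) summed to 22.7 to 37.0 CPM after IL-1β and 0.242 to 1.71 in saline livers of Pico, and to 34.5 to 73.4 and 1.48 to 2.84 in TruSeq. In V4 these sums were 34.9 to 66.7 and 1.98 to 4.16. Mmp8, Ngp, S100a8 and S100a9 passed as higher in every kit, Elane, Camp and Ly6g passed in none, and Mpo is not among the genes tested. The Kupffer cell and macrophage list went the other way. It held 9 symbols, of which Emr1 and Adgre1 name the same gene, and 8 had counts. Its sums were 87.6 to 122 after IL-1β and 164 to 273 in saline livers of TruSeq. In Pico they were 127 to 162 and 208 to 272, and in V4 94.4 to 138 and 146 to 291. Of those 8 genes, 6 were lower and 1 higher in TruSeq, 4 lower in Pico and 2 lower in V4. The adipocyte list summed to 10.6 to 16.6 against 1.66 to 4.59 in TruSeq, 5.20 to 12.2 against 0 to 3.14 in Pico and 10.04 to 50.2 against 5.74 to 14.7 in V4, and Lep and Plin1 are not among the genes tested in any kit. Of 3 adipocyte genes tested in each kit, Cidec was the 1 called higher, with 141, 170 and 130 counts after IL-1β and 18, 23 and 40 in saline livers of TruSeq. Cfd had log2 fold changes of 0.15 in TruSeq, -0.31 in V4 and 1.38 in Pico and passed in none, and Retn and Adipoq had 0 to 2 counts per library where tested. For scale, Saa3 alone reached 3303 to 3804 CPM after IL-1β in TruSeq. The endothelial sums were 70.5 to 89.1 after IL-1β and 119 to 131 in saline livers of TruSeq, 223 to 264 and 284 to 301 in Pico, and 25.3 to 43.4 and 39.7 to 45.7 in V4. The 5 endothelial genes went both ways, with 1 higher and 3 lower in TruSeq, 2 higher and 2 lower in Pico, and 0 higher and 1 lower in V4. Kdr was lower in every kit (log2 fold change -2.38 in TruSeq), whereas Lyve1 was higher in TruSeq and Pico (0.94 and 1.65). The gut epithelium sums were 37.2 to 52.9 and 57.4 to 77.9 in TruSeq, 20.5 to 35.8 and 32.5 to 39.4 in Pico, and 36.0 to 71.7 and 65.0 to 85.9 in V4. The part of these cells in the levels of the family was not tested.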

How the data were processed

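Liver RNA of 6 mice was sequenced with 3 kits. Per the labels, reads were aligned with GSNAP to mm9. The deposited values are whole-number counts per gene that the authors made by resampling reads to a like depth within a kit (PORT), after removing ribosomal reads and requiring reads to respect annotated junctions. Pico and TruSeq counts are of sense reads and V4 counts of both strands. The sources do not say which of the repeated Pico preparations was deposited.

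The counts were fitted per kit with limma-voom (limma 3.58.1, R 4.3.3), which the study also used, on library totals over all genes above 0. Benjamini-Hochberg adjustment was applied and calls were made at 0.05. The study lists a range of cutoffs. At 0.05 it counts more genes up than down in each kit, the reverse of the calls here. In each kit its count of genes up was near the count of lower genes here. Its count of genes down was likewise near that of higher genes here. The counts here were 4232 lower and 2382 higher in TruSeq, 1337 and 649 in V4, and 1951 and 1228 in Pico. The reason for the reversal was not tested. Interactions used the 12 libraries of a pair of kits. Ratios of members were taken as log2 counts per kilobase with 0.5 counts added, and tested by exact permutation or sign-flip (scipy 1.17.1). Confidence levels are 95%. Intervals on counts cover counting error only, and no molecular identifiers were used. Lengths came from GENCODE vM1. Alternatives were edgeR 4.0.16, DESeq2 1.42.0, TMM factors, a filter, thinning, other cutoffs, other added counts, lengths counted in read windows, summed Saa1 and Saa2, leaving out each mouse, 1 fit of 18 libraries, and the mouse as a block. The treatment fit within a kit was run on simulated counts with limma-voom, with and without TMM factors, edgeR and DESeq2. The interaction, the block and the other fits were not.

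RNA of 1 mouse entered all kits, so mice pair the kits. Deviations of same-mouse libraries from their group means correlated over 8960 genes, at 0.0718 to 0.225 for V4 with Pico, 0.157 to 0.439 for V4 with TruSeq and 0.191 to 0.437 for Pico with TruSeq. Mice are separate animals, and no 2 libraries of a group agreed within sampling noise, with a chi-square per degree of freedom of at least 7.04.

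Named genes were the members, the 3 closest in correlation to each, the 3 nearest annotated genes with counts on each side of the cluster, and, from 4 lists, the 2 lowest and 2 highest fold changes in TruSeq. Genes named beyond that rule (Orm3, Il6, markers) were chosen after their values were seen. The members and lists were chosen with earlier results of these data known.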

Additional observations from a re-analysis of the deposited data

How the results depend on the processing

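Of 639 values of the members recomputed under the alternatives, 609 were classed as unchanged. Of the rest, 21 reversed direction, 6 moved in size and 3 lost their call. No interaction and no ratio of a member reached an adjusted p of 0.05 under any alternative. For these the 609 therefore does not tell of calls kept. For the interactions and the ratios between kits it tells of direction only, since sizes could move within the class. The difference of Saa3 in V4 minus TruSeq went from 0.60 to 1.11 without mouse UNT.9576 and was classed as unchanged. The log2 fold change of Saa2 in TruSeq, classed likewise, went from 8.28 to 7.21 with Saa1 and Saa2 summed. All 4 members stayed higher in Pico and TruSeq under each alternative run. The lost calls were in V4, where Saa4 lost its call in 3 of 6 fits with a mouse left out. Over those 6 fits its log2 fold change ranged from 0.90 to 1.33. With the mouse as a replicate block, the difference of Saa3 between V4 and TruSeq was 0.60 with an adjusted p of 0.799 by limma-voom, and the block changed no call of a member.

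With 20 counts added to the means, the log2 fold changes of the low saline genes fell to 7.63 for Saa2 and 7.26 for Saa3 in Pico and to 8.91 for Saa3 in TruSeq. In Pico the rise of the log2 ratio became 1.56 for Saa2 to Saa1 with 20 counts, and 2.30 and 1.17 for Saa3 to Saa1 with 5 and 20 counts. Between Pico and TruSeq the Saa3 to Saa1 difference turned to 0.30 and 0.75 with 5 and 20 counts, and ranged from -0.22 to 0.14 with a mouse left out; between V4 and Pico it turned to -0.32 with 20 counts.

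Differences between kits that were near 0 changed sign. Summing Saa1 and Saa2 gave 0.049 for Saa1 in Pico minus TruSeq and 0.13 for Saa2 in V4 minus Pico, and TMM scaling gave 0.053 for the latter. With a mouse left out, Saa2 ranged from -0.22 to 0.35 in V4 minus Pico and from -0.018 to 0.45 in V4 minus TruSeq, Saa3 from -0.10 to 0.63 in Pico minus TruSeq and from -0.17 to 0.56 in V4 minus Pico, and Saa4 from -0.046 to 0.27 in V4 minus TruSeq. The Saa2 to Saa1 ratio ranged from -0.057 to 0.031 and the Saa4 to Saa1 ratio from -0.081 to 0.14 in V4 minus TruSeq, and the latter was -0.039 with lengths counted in read windows. None of these passed a test, and the cause of the changes was not tested.

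Among the lists, the count of higher or lower genes moved by over 1.5 times in 54 of 270 recomputed counts, and Hps5 in TruSeq lost its call under 6 alternatives. Over all alternatives 18 to 23 of the acute-phase genes were higher in V4, 21 to 22 in Pico and 22 to 23 in TruSeq. The saline values of Saa3 in Pico rest on 2 to 6 counts in each library. With 3 mice per treatment, no ratio within a kit could reach an exact p under 0.1.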
